A study of Mus musculus with 4 samples.

Results

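Hypothalamus and preoptic spots are the spots of coronal mouse brain sections in which Irs4, Arhgap36, Dlk1, Gabrq and Baiap3, genes of ventral diencephalic neurons, were together high. For each gene the natural log of 1 plus the counts per 10000 of a spot became a z score over all kept spots, and spots whose mean z was at least 1 are the members. Of 12601 kept spots, 1581 (12.5%) were members. The 5 genes define the members and are not results, and the contrast of members with the other spots was part of the choice. It is given below as a description with no test.

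The sections came from 2 wild type mice and 2 mice heterozygous for Celsr3, whose product is a membrane receptor with cadherin repeats known for guiding axons. The mice received no treatment, and age, sex and strain are not given in the sources used here. Trimmed brains were fixed in formalin, embedded in paraffin and cut so that the striatum was in the plane, and probes were captured with the Visium CytAssist assay for FFPE tissue, version 2. Each spot samples several neighbouring cells, so fewer cells of a type and less RNA per cell cannot be told apart. Spot names carry 1 of 4 endings, called barcode sets 1 to 4 here. The endings match no mouse or genotype of the labels, so no genotypes were compared, and each set's value is given, with 95% intervals that cover counting error only.

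The hypothalamus lies at the base of the brain and the preoptic area adjoins its front end. Their neurons form small nuclei, many marked by a secreted peptide such as oxytocin, vasopressin, thyrotropin-releasing hormone or galanin, and they steer pituitary hormones, water balance, feeding, body temperature, reproduction and parental care. Hypothalamic neurons are also known for several imprinted genes, which are read from a single parental copy, and for receptors of sex steroids and metabolic hormones.

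Oxt, the gene of oxytocin, and Avp, the gene of vasopressin, are neighbours on mouse chromosome 2 and were the peptide genes with the widest gap between members and other spots in sets 1, 3 and 4. The 250 bases before their start sites are shown because Avp was also high in the member spots richest in Oxt, as described further on. The sequences are RefSeq's, build GRCm38.p6, 5′ to 3′ on the strand of the gene. Oxt lies on the plus strand, at chr2:130575919-130576168, and Avp on the minus strand, at chr2:130582589-130582838. Capitals mark matches to AGGTCA, the core of nuclear receptor elements, and CACGTG, an E-box, both searched on both strands, and to ATAAA, part of a TATA-like box, searched on the strand of the gene.
Oxt: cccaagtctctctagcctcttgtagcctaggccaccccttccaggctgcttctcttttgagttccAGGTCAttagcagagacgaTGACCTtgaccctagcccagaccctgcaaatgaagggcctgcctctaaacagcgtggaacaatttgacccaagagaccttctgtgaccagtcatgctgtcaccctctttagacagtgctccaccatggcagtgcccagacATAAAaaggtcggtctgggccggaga
Avp: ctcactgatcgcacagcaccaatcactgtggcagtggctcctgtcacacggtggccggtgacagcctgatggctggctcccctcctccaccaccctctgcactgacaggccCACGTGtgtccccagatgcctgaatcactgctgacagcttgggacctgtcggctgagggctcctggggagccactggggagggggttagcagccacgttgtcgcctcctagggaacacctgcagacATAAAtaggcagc
The Oxt window held AGGTCA at base -185 from the start site, its reverse complement TGACCT at -166 and ATAAA at -26. The Avp window held CACGTG at -139 and ATAAA at -13, and no matches overlapped. Of 32851 RefSeq windows of this length, 14.0% held AGGTCA or TGACCT, 6.02% CACGTG and 24.0% ATAAA. A match describes letters in the window only.

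Members were 341 of 3055 spots in set 1, a share of 11.2% with an exact Clopper-Pearson interval of 10.1 to 12.3. Set 2 had 366 of 2808 (13.0%, 11.8 to 14.3), set 3 410 of 3444 (11.9%, 10.8 to 13.0) and set 4 464 of 3294 (14.1%, 12.9 to 15.3). The interval of set 4 lay above that of set 1 and overlapped those of sets 2 and 3. Members had a median of 51043, 36216, 39776 and 27964 counts per spot in sets 1 to 4, against 52566, 38653, 45971 and 25953 in the other spots, and their sums held between 13165159 and 18987164 counts. The lowest mean z of a member was 1.001, 1.004, 1.000 and 1.006, and the highest of another spot 0.996, 0.984, 0.999 and 0.998. All 5 rule genes had a count in 84.8%, 82.8%, 83.2% and 71.8% of members. Members used 1540 distinct barcodes, of which 41 were members in more than 1 set.

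Celsr3, the gene altered in the heterozygous mice, had 42.5 (39.6 to 45.5) counts per 1000000 (CPM, with its exact Poisson interval) among the set 1 members and 34.1 (31.4 to 37.1) CPM among those of set 3. The level was 52.5 (48.6 to 56.6) CPM for set 2 members and 58.1 (54.1 to 62.3) CPM for set 4 members. Sets 2 and 4 were high and sets 1 and 3 low, and since no set is tied to a mouse this order checks no label. The other spots also differed between sets: Ttr, the transthyretin gene of choroid plexus, was at 8170, 8.35, 6803 and 691 CPM there. Its part in the ratios below was not tested. The label was checked on genes that the rule did not use. The hypothalamic peptide genes Oxt, Avp and Trh were high in members of every set and the cortical gene Slc17a7 low. Slc17a7 bears on cortex only, and the 3 peptide genes were picked from a mixed list. Of its 29 compared genes, by the call defined below, 12 were higher, 4 lower (Penk, Npy, Cck and Vip) and 13 neither. Pomc, Agrp, Hcrt and Pmch were among the last. Spots high in Nts and Hap1, called extended amygdala spots below, made up 52.5% of members. The label thus does not separate the members from such spots. Hap1 itself had a Pearson r of 0.82 with the rule's mean z over all kept spots, so part of this overlap was built into the choice of genes. The name of that area was not checked on other genes. The shared spots were 151 of 341 members in set 1, 290 of 366 in set 2, 237 of 410 in set 3 and 152 of 464 in set 4.

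The genes with the widest gap between members and other spots encoded neuropeptides, secretory proteins, hypothalamic receptors and imprinted products. Levels are CPM in the summed counts of a group of spots, compared between groups for the same gene. A gene is called higher or lower where log2(CPM + 1) differed by at least 1, which is 2-fold, the same way in all 4 sets. Among 10240 genes averaging 10 CPM or more, 255 (2.49%) were higher in members and 355 (3.47%) lower. Higher genes were 41.8% of those called, 30.4% under TMM scaling (196 higher, 449 lower) and 34.7% under RLE scaling (215 and 405). The median log2 ratio of all these genes was 0.075, 0.11, 0.088 and 0.084 in sets 1 to 4, and -0.082, -0.037, -0.10 and 0.027 under TMM.

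Oxt ranked above every other compared gene by its lowest ratio over the sets. Its level in members was 4344, 1685, 1271 and 4493 CPM in sets 1 to 4, against 26.1, 7.38, 4.15 and 77.2 CPM in the other spots. Sets 1 and 4 were high, sets 2 and 3 lower, and the summed levels of members all lay above those of the other spots. Single spots were not compared in this way. The ratio (exact conditional binomial interval) was 167-fold (161 to 172), 228-fold (212 to 246), 306-fold (282 to 332) and 58.2-fold (56.6 to 59.8). The intervals leave out the choice of spots. The lowest log2 ratio of Oxt over the sets, 5.84, was 4.28 with members at a mean z of 1.5 or more, 4.91 with z taken within sets, 7.08 against other spots under 0.5 and 7.34 without set 4. Avp was at 2894, 34.4, 482 and 1050 CPM in members and 68.8, 1.60, 5.39 and 38.4 CPM elsewhere. Set 2 was by far the lowest set for Avp in both groups of spots, so that its members lay below the other spots of sets 1 and 4. Within set 2 the ratio was 21.6-fold (17.9 to 26.1). There 1 spot held 250 of the 453 member counts, and without it the ratio was 9.70-fold (7.82 to 12.03).

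Other leading genes combined a peptide with proteins of secretion and with receptors. Trh, the gene of thyrotropin-releasing hormone, was at 248, 89.6, 182 and 356 CPM in members and 9.79, 4.87, 5.99 and 13.5 CPM elsewhere, lowest in set 2 in both. Sytl4, whose product granuphilin binds secretory vesicles, was at 41.5, 26.4, 52.8 and 35.9 CPM in members and 0.756 to 1.93 CPM elsewhere. Calcr, the calcitonin receptor, which also forms amylin receptors, was at 34.8, 68.9, 52.8 and 55.6 CPM in members and 1.39 to 1.82 CPM elsewhere, and here set 2 was the highest. Gal, the galanin gene, was likewise highest in set 2, at 61.8, 289, 167 and 107 CPM in members against 8.22, 2.44, 3.32 and 6.53 CPM.

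Several leading genes varied less over the sets. Ngb, the gene of neuroglobin, an oxygen-binding globin of neurons, was at 50.4, 55.9, 76.6 and 79.0 CPM in members and 3.63 to 4.79 CPM elsewhere. Gpx3, a glutathione peroxidase, was at 321, 242, 272 and 293 CPM in members and 11.03 to 29.1 CPM elsewhere. Gpr101, an orphan receptor linked to growth hormone excess, was at 104, 79.1, 132 and 91.6 CPM in members and 5.66 to 10.7 CPM elsewhere. AW551984 was at 285, 205, 288 and 210.1 CPM in members and 5.99 to 18.9 CPM elsewhere. For each of these 4 genes the lowest member level lay above the highest level of the other spots. This does not set them apart, since leading genes were ranked by their lowest ratio over the sets. The same held for Sytl4, Calcr, Magel2 and Hap1 among others, and not for Avp. How many of all compared genes share it was not counted.

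The rest of the 25 leading genes included the imprinted genes Magel2, Asb4, Peg10 and Zim1, the huntingtin partner Hap1, the estrogen receptor gene Esr1 and Resp18, a protein of the secretory pathway. Dgkk, a diacylglycerol kinase gene, was at 21.2, 44.1, 24.5 and 21.7 CPM in members against 1.96 to 3.36 CPM, highest in set 2. Asb4 was at 24.9, 55.4, 41.5 and 22.9 CPM against 1.66 to 2.18 CPM, and Ppp1r17, a phosphatase inhibitor gene, at 14.1, 14.7, 22.2 and 26.2 CPM against 0.529 to 2.00 CPM. Pgr15l, Ppp1r17, Esyt3, Gpr165 and Tmem255a were also among the 25, with log2 ratios of at least 2.64 in every set.

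**Figure D1:**
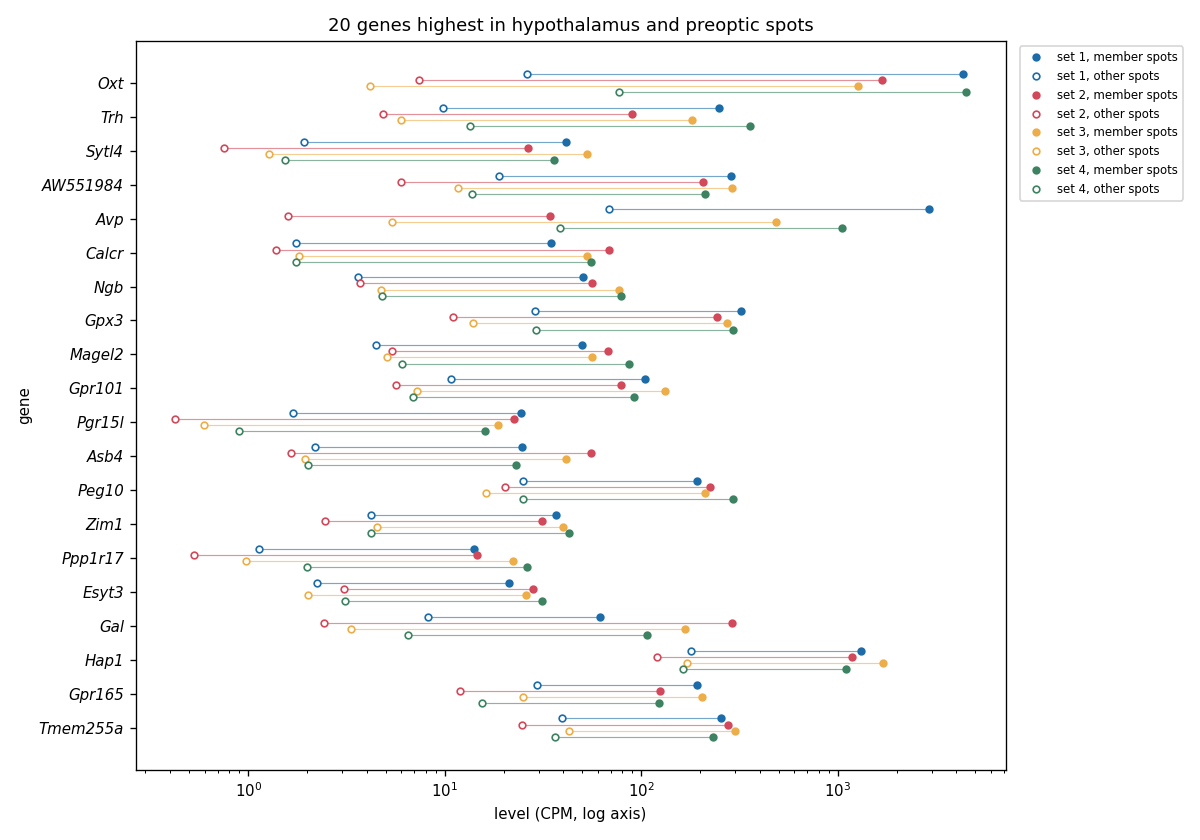
Levels (CPM, log axis) of the 20 genes ranked highest by their lowest ratio, by barcode set, in member spots (filled points) and in the other spots (open points), joined by a line per set. Every filled point lies right of the open point of its set, and Oxt spans 4.15 to 77.2 CPM in the other spots and 1271 to 4493 CPM in members.

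Among peptide genes, releasing hormones and magnocellular peptides were high in members and several peptides of cortex and striatum were low. Of 36 listed, 29 averaged 1 CPM or more, and of these 12 were higher and 4 lower, beside 2.47% and 3.09% of all 13834 genes at that minimum, shares that stand beside every list count that follows. The list's median log2 ratio was 1.06, 1.04, 1.14 and 0.79, beside 0.055, 0.11, 0.080 and 0.081 for all genes. Besides Oxt, Avp, Trh and Gal the higher genes were Crh, Ghrh, Gnrh1, Cartpt, Tac2, Pnoc, Adcyap1 and Ucn3. Gnrh1 and Ucn3 lost the call under TMM, and Ucn3 under RLE. With 5 CPM added in place of 1, which weighs low genes less, 8 were higher, without Crh, Gnrh1, Adcyap1 and Ucn3. Without the richest member spot of each set Gnrh1 and Ucn3 were not called. Crh, the stress hormone gene, was at 24.7, 76.2, 25.8 and 39.3 CPM in members and 8.67, 15.9, 5.05 and 17.6 CPM elsewhere. Ghrh, which drives growth hormone release, was at 7.48, 9.11, 6.67 and 8.99 CPM against 0.487 to 0.764 CPM, and Gnrh1, which starts the gonadal axis, at 5.37, 13.1, 11.4 and 21.5 CPM against 2.05 to 2.92 CPM. Cartpt, a peptide gene of feeding circuits, was at 269, 236, 328 and 158 CPM against 31.7 to 45.9 CPM. Adcyap1, the PACAP gene, was at 76.6, 20.3, 56.5 and 46.5 CPM against 7.89 to 16.4 CPM, and Pnoc, the nociceptin precursor gene, at 62.6, 93.96, 118 and 111 CPM against 12.2 to 18.7 CPM.

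The lower peptide genes were Penk, Npy, Cck and Vip. Penk, the enkephalin precursor, was at 167, 203, 171 and 139 CPM in members against 707, 818, 703 and 586 CPM elsewhere. Npy was at 55.3 to 63.1 CPM against 225 to 389.6 CPM, and Cck at 34.3 to 200.4 CPM against 578 to 851 CPM. Vip, which is also made in the suprachiasmatic nucleus, the circadian clock, was at 2.84 to 6.76 CPM against 24.0 to 38.4 CPM. In the suprachiasmatic list 3 of 11 genes were higher (Avp, Six6 and Zfhx3) and 1, Vip, was lower. Six6 and Zfhx3 lost the call under TMM and with 5 CPM added, Zfhx3 under RLE, and Six6 without the richest spots.

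Genes of the paraventricular and supraoptic nuclei, the source of oxytocin and vasopressin, were mostly higher. Of 12 genes 9 were higher and 0 lower, or 8 higher without Ucn3 under TMM and RLE and 6 without Ucn3, Crh and Sim1 with 5 CPM added, with median log2 ratios of 2.45, 1.94, 3.16 and 2.62. Otp, a homeobox gene needed for these neurons to form, was at 122, 6.99, 75.1 and 119.8 CPM in members and 0.632 to 2.00 CPM elsewhere. Sim1, a transcription factor gene of the same lineage, was at 31.2, 2.43, 15.9 and 19.1 CPM against 3.64, 0.311, 0.384 and 0.531 CPM. Both were lowest in set 2. Scg2, the secretogranin II gene, was at 788, 665, 824 and 826 CPM against 171 to 242 CPM. Brs3, a bombesin-like receptor gene of energy balance, was at 8.58, 18.2, 22.1 and 7.81 CPM against 0.580 to 1.23 CPM.

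In the preoptic list 8 of 16 genes were higher (Gal, Calcr, Esr1, Hmx3, Sncg, Gnrh1, Cyp19a1 and Adcyap1) and 0 lower, with Gnrh1 lost under TMM. With 5 CPM added 4 were higher, without Hmx3, Gnrh1, Cyp19a1 and Adcyap1. Esr1, the gene of estrogen receptor alpha, was at 28.1, 59.2, 52.2 and 25.5 CPM in members and 3.45 to 3.80 CPM elsewhere, high in sets 2 and 3. Cyp19a1, the aromatase that makes estradiol, was at 4.48, 3.19, 7.87 and 4.57 CPM against 0.478 to 0.803 CPM. Prlr, the prolactin receptor gene, was at 40.0, 53.0, 85.04 and 41.8 CPM against 21.2, 1.96, 16.5 and 6.54 CPM, and its log2 ratio of 0.88 in set 1 kept it from the call.

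In the list of the tuberal and lateral hypothalamus 4 of 11 genes were higher (Ghrh, Tac2, Ppp1r17 and Gpr50) and 0 lower. Gpr50 lost the call under TMM and RLE, with 5 CPM added and without the richest spots. Tac2, the neurokinin B gene, was at 97.2, 230.2, 385 and 253 CPM in members and 33.9, 16.5, 32.2 and 57.9 CPM elsewhere. Agrp, the hunger peptide of the arcuate nucleus, was at 0.948 to 2.06 CPM in members and 0.507 to 1.24 CPM elsewhere. Among hypothalamic transcription factors 8 of 30 were higher (Sim1, Otp, Six6, Hmx3, Isl1, Dlx1, Nr2f2 and Onecut3) and 1, Meis2, was lower. Under TMM Six6 lost the call and Foxp2 became lower, and with 5 CPM added 4 were higher, without Sim1, Six6, Hmx3 and Isl1. Onecut3 was at 16.4, 12.5, 7.81 and 8.47 CPM against 0.860 to 1.35 CPM, and Meis2, a factor of striatal neurons, at 65.2, 43.4, 49.9 and 25.3 CPM against 182, 123, 164 and 79.6 CPM.

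Oxt and Avp counts lay mostly in few member spots, those of Trh, Gal and Cartpt less so, and Hap1 and Ahi1 had counts in nearly all. The richest 5% of member spots, 18, 19, 21 and 24 spots in sets 1 to 4, held 78.1%, 81.8%, 68.2% and 64.7% of the Oxt counts and 84.4%, 89.0%, 71.4% and 56.6% of the Avp counts. The share was 67.4% to 76.4% for Gnrh1, 33.3% to 42.4% for Trh, 33.6% to 44.7% for Gal and 25.8% to 37.8% for Cartpt. Among imprinted genes it was 30.0% to 35.1% for Calcr and 11.1% to 15.8% for the necdin gene Ndn. It was 11.6% to 16.4% for Hap1 and 11.02% to 13.4% for its partner Ahi1. A gene with few counts falls in few spots however it is spread, and Gnrh1 had far lower levels than Hap1. Oxt had a count in 69.5%, 49.2%, 53.9% and 84.3% of member spots, Cartpt in 92.4%, 89.3%, 86.3% and 86.0% and Calcr in 60.7%, 61.2%, 62.4% and 49.6%. The highest Oxt spots reached 78183, 58025, 49331 and 166642 CPM.

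**Figure D2:**
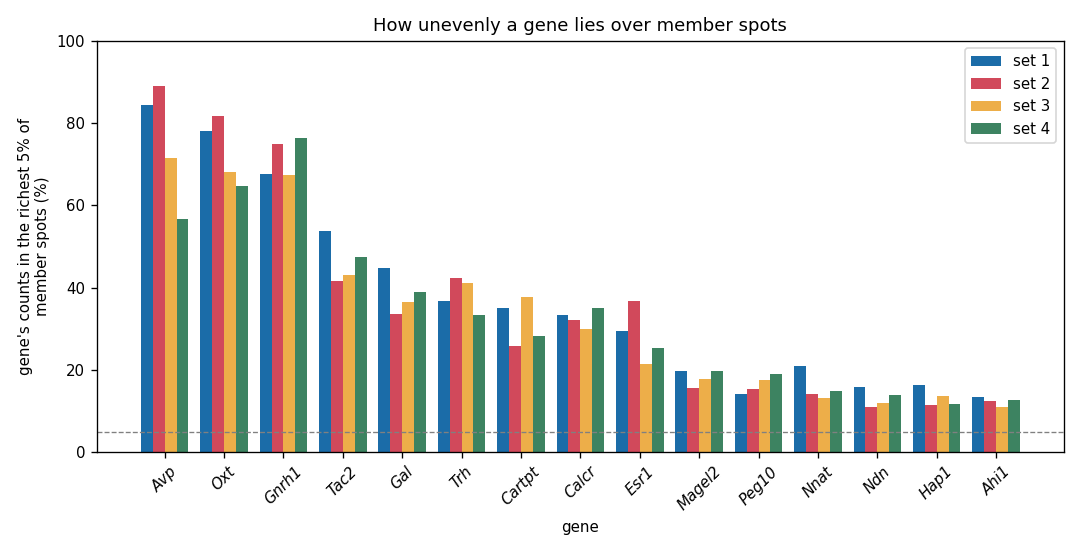
Share of a gene's counts over member spots (percent, bars by barcode set) that lay in the 5% of member spots richest in that gene, for 15 genes, with a dashed line at 5%. Bars of Avp, Oxt and Gnrh1 reach 56.6% to 89.0%, and those of Ndn, Hap1 and Ahi1 11.02% to 16.4%.

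The 5% of member spots with the highest Oxt level were also rich in Avp, Otp and Sim1. Against the other members of the set, Avp was 13.3-fold (13.0 to 13.5), 36.3-fold (29.8 to 44.4), 10.9-fold (10.4 to 11.4) and 8.73-fold (8.42 to 9.05) in sets 1 to 4. In set 2 a single spot held 250 of the 299 Avp counts of the Oxt-rich spots, so that ratio rests mostly on it. The ratios of Sim1 were 6.32 (5.32 to 7.49), 6.23 (2.42 to 14.3), 3.77 (2.59 to 5.36) and 2.85 (1.89 to 4.16), and those of Otp 4.18 (3.81 to 4.59), 6.59 (3.96 to 10.6), 2.10 (1.70 to 2.57) and 1.48 (1.20 to 1.80), with the set 2 values resting on 8 and 24 counts. Slc32a1, the transporter that loads GABA into vesicles, had ratios of 0.196 (0.134 to 0.278), 0.971 (0.771 to 1.21), 0.612 (0.457 to 0.803) and 0.659 (0.475 to 0.893), below 1 with its interval in sets 1, 3 and 4. Hap1 had ratios of 0.855 to 1.05 and Ahi1 of 0.937 to 1.08. Crh, whose interval lay above 1 in set 1 and in no other set, had ratios of 4.88 (3.98 to 5.95), 1.06 (0.793 to 1.40), 0.837 (0.464 to 1.40) and 0.689 (0.398 to 1.11). These intervals cover counting error within a set.

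Gal was high in member spots rich in Oxt and, in sets 2 to 4, in those rich in Hmx3, a homeobox gene of the developing preoptic area and hypothalamus. In the Oxt-rich spots its ratios were 2.60 (2.23 to 3.01), 2.14 (1.92 to 2.37), 3.55 (3.17 to 3.96) and 3.28 (2.81 to 3.81). In the 5% of member spots with the highest Hmx3 level, Gal had ratios of 0.887 (0.633 to 1.21), 2.84 (2.59 to 3.11), 3.22 (2.87 to 3.60) and 4.13 (3.59 to 4.72). In set 1 Hmx3 had only 32 counts, in 26 of 341 member spots and at most 3 in a spot. The 18 Hmx3-rich spots of set 1 were therefore chosen on very few counts, which the intervals leave out. Oxt itself had ratios of 0.208 (0.193 to 0.224), 2.49 (2.39 to 2.59), 1.96 (1.86 to 2.05) and 1.63 (1.59 to 1.68) in the Hmx3-rich spots, above 1 in the same 3 sets as Gal. Hmx2, the neighbouring homeobox gene, had ratios of 8.90 (2.07 to 30.0), 3.25 (2.10 to 4.87), 4.19 (1.70 to 9.03) and 5.22 (2.59 to 9.81), on 4, 29, 8 and 13 counts in the rich spots. Lhx8, a homeobox gene of basal forebrain cholinergic neurons, had a ratio of 0.162 (0.0697 to 0.321) in set 2, where it was most abundant. In sets 1, 3 and 4 its ratios were 0.395 (0.00984 to 2.28), 1.56 (0.763 to 2.87) and 0.563 (0.151 to 1.48), with intervals that included 1. Slc32a1 had ratios of 0.767 (0.577 to 1.00), 0.587 (0.446 to 0.760), 0.592 (0.443 to 0.776) and 0.665 (0.488 to 0.887) in these spots.

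The members of the sets differed in genes that mark zones of the hypothalamus. Hcrt, Pmch, Pomc and Nr5a1 exceeded 10 CPM in the members of set 1 and stayed under that level in the other 3 sets. Hcrt, the orexin gene of wake-promoting lateral neurons, was at 32.7, 1.97, 1.08 and 1.99 CPM in sets 1 to 4. Pmch, the gene of melanin-concentrating hormone from the same region, was at 68.2, 1.82, 3.91 and 2.73 CPM. A single spot held 872 of the 1295 Pmch counts of set 1, and without it the level was 22.3 CPM. Pomc, the precursor of satiety peptides in the arcuate nucleus, was at 18.9, 2.81, 0.661 and 5.08 CPM. Without the spot that held 160 of its 358 counts the Pomc level of set 1 was 10.5 CPM. Nr5a1, a factor of the ventromedial nucleus, was at 10.7, 0.304, 0.240 and 0.737 CPM. In set 1 the richest 18 of 341 member spots held 91.3% of the Hcrt counts, 90.7% of the Pmch counts and 96.6% of the Pomc counts.

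Set 2 stood apart in other genes. Its members had the most Nkx2-1, a patterning gene of the ventral forebrain and hypothalamus, at 8.43, 65.8, 15.3 and 9.13 CPM in sets 1 to 4. Lhx8 was at 3.32, 61.6, 9.98 and 10.2 CPM, Hmx3 at 1.69, 33.3, 5.95 and 7.29 CPM and Nts, the neurotensin gene, at 29.0, 229, 24.9 and 29.5 CPM, each highest in set 2. Nts is also among the genes that chose the extended amygdala spots, which included 290 of the 366 members of set 2. Zic1, a zinc finger gene of septum and preoptic area, was at 86.0, 402, 253 and 309.9 CPM. The same members had the least Otp, Sim1, Avp, Trh and Ucn3. Fezf1, a factor of the ventromedial lineage, was at 12.3, 2.28, 5.95 and 19.4 CPM, highest in set 4, and Tac2 was highest in set 3. The plane of cutting, the animal and the library cannot be told apart behind these differences.

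**Figure D3:**
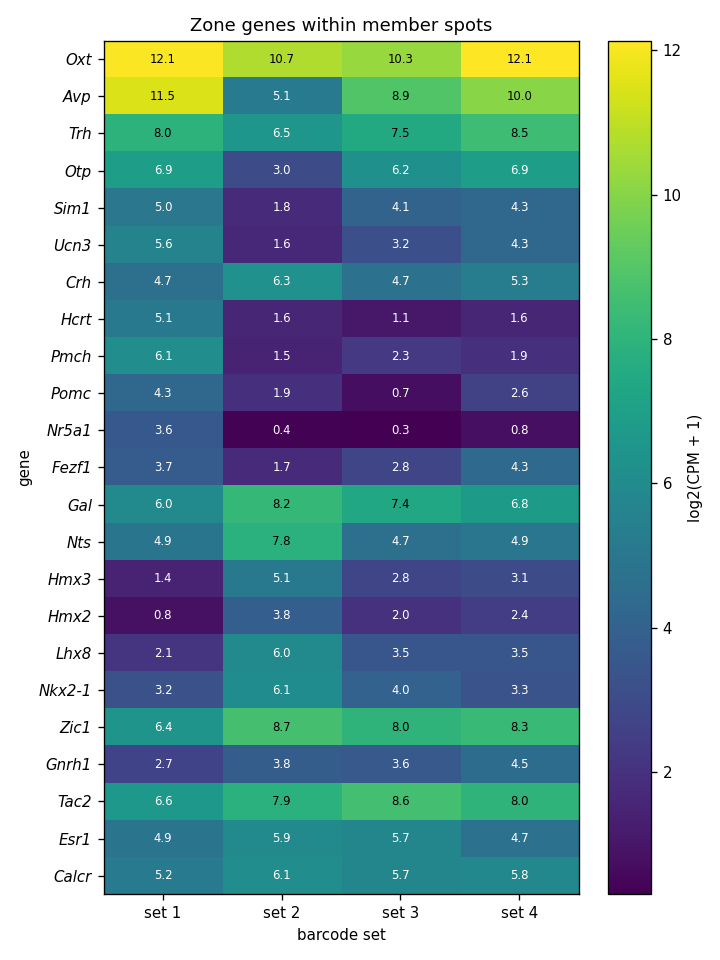
Levels of 23 zone genes in the member spots of each barcode set, as log2(CPM + 1), by colour and printed to 1 decimal. Hcrt, Pmch, Pomc and Nr5a1 are highest in set 1, and Gal, Nts, Hmx3, Lhx8 and Nkx2-1 in set 2, where Avp, Otp and Sim1 are lowest. The genes were chosen after their values were seen.

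Between the members of a pair of sets, few or many of 10225 genes lay 2-fold apart. Sets 1 and 3 had 55 (0.538%) such genes and sets 2 and 4 had 106 (1.04%). The pair of sets 2 and 3 had 476 (4.66%), that of 3 and 4 had 566 (5.54%), that of 1 and 2 had 667 (6.52%) and that of 1 and 4 had 782 (7.65%). Per pair, 33.0% to 75.4% of these genes were also 2-fold apart between the other spots. Over the 4 sets 95 genes spanned 4-fold or more in members, 78 of which spanned 2-fold or more in the other spots. The 15 widest ranges belonged to Gm10260, Avp, Olfr305, Amd1, Gm4737, H2-D1, Hbb-bs, Me1, H2-Q2, Hba-a2, Pmch, Tmem267, Isoc2a, Pigv and Olfr307. Of these Gm10260 was at 2.95, 163, 145 and 329 CPM in members and 2.76, 146, 134 and 282 CPM in the other spots, the same order in both. H2-Q2, a class I histocompatibility gene, was at 17.2, 12.2 and 28.6 CPM in the members of sets 1 to 3 and 1.21, 0.705 and 1.33 CPM in their other spots. Set 4 had 0 counts of H2-Q2 in both, which allows up to 3 counts in each sum.

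Of these 95 genes, 8 spanned at most 1.5-fold in the other spots, on the scale of CPM + 1. Ucn3, the urocortin 3 gene, was at 47.0, 2.13, 8.05 and 18.4 CPM in members and 0.377 to 1.04 CPM elsewhere. Scgn, a calcium-binding protein gene, was at 14.0, 4.03, 22.6 and 9.36 CPM against 0.995 to 1.59 CPM. Pde11a, a phosphodiesterase gene, was at 4.69, 22.9, 8.65 and 7.81 CPM against 3.06 to 4.61 CPM, and Prkcd, a protein kinase C gene, at 12.2, 54.2, 24.8 and 12.2 CPM against 22.4 to 31.2 CPM, both highest in set 2. Nkx2-1, Cck and Cd74 were also among them.

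Imprinted genes were higher in members in 16 of 33 cases and lower in 0, beside 2.47% and 3.09% of all genes at that minimum. The rule gene Dlk1 is itself imprinted and adjoins the listed gene Rtl1, so this count is not independent of the choice of members. Blcap and Plagl1 lost the call under TMM, Blcap under RLE, and both and Rtl1 with 5 CPM added. The list's median log2 ratio was 1.04, 1.15, 1.09 and 0.98, and its summed level 13013 to 14957 CPM in members and 4469 to 5502 CPM elsewhere. Ndn, a gene of the Prader-Willi region, was at 1520, 1567, 1437 and 1547 CPM in members against 388, 375, 374 and 407 CPM, a narrow range in both. Magel2, which adjoins Ndn and is mutated in a Prader-Willi-like syndrome, was at 49.9, 67.5, 56.0 and 86.1 CPM against 4.47, 5.39, 5.06 and 6.06 CPM.

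Imprinted neighbours could differ. Zim1, Peg3 and Usp29 adjoin in RefSeq's GRCm38.p6 gene order and were all higher. Zim1 was at 36.7, 31.2, 39.8 and 43.1 CPM in members against 2.47 to 4.50 CPM, Peg3 at 973, 788, 983 and 629.5 CPM against 206 to 299 CPM and Usp29 at 203, 108, 195 and 102 CPM against 25.2 to 54.7 CPM. Peg10, a gene derived from a retrotransposon, was at 193, 224, 210.1 and 292 CPM in members against 16.3 to 24.9 CPM, and Sgce, which adjoins it, at 59.1 to 69.1 CPM against 43.0 to 53.9 CPM. Mkrn3, which adjoins Magel2, had log2 ratios of -0.49 to -0.14 at 0.987 to 1.63 CPM. Nnat, the neuronatin gene, was at 1338, 1869, 1197 and 1870 CPM against 279, 260.5, 202 and 413 CPM, and Blcap, which adjoins it, at 102, 37.8, 88.6 and 45.01 CPM against 46.1, 18.0, 38.0 and 20.4 CPM. Nap1l5 was at 2456, 3303, 3196 and 4368 CPM against 658, 702, 778 and 1249 CPM. The remaining higher genes were Rtl1, Asb4, Calcr, Zdbf2, Plagl1, Impact and Grb10. Rtl1, like Peg10 derived from a retrotransposon, was at 6.27, 9.34, 6.19 and 5.60 CPM against 0.565 to 0.959 CPM. Gnas, which couples receptors to cyclic AMP, had log2 ratios of 1.00, 1.23, 1.02 and 0.94 and missed the call in set 4. Igf2, a growth factor gene of meninges and choroid plexus, had log2 ratios of -1.71, -0.50, -1.45 and -0.50.

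**Figure D4:**
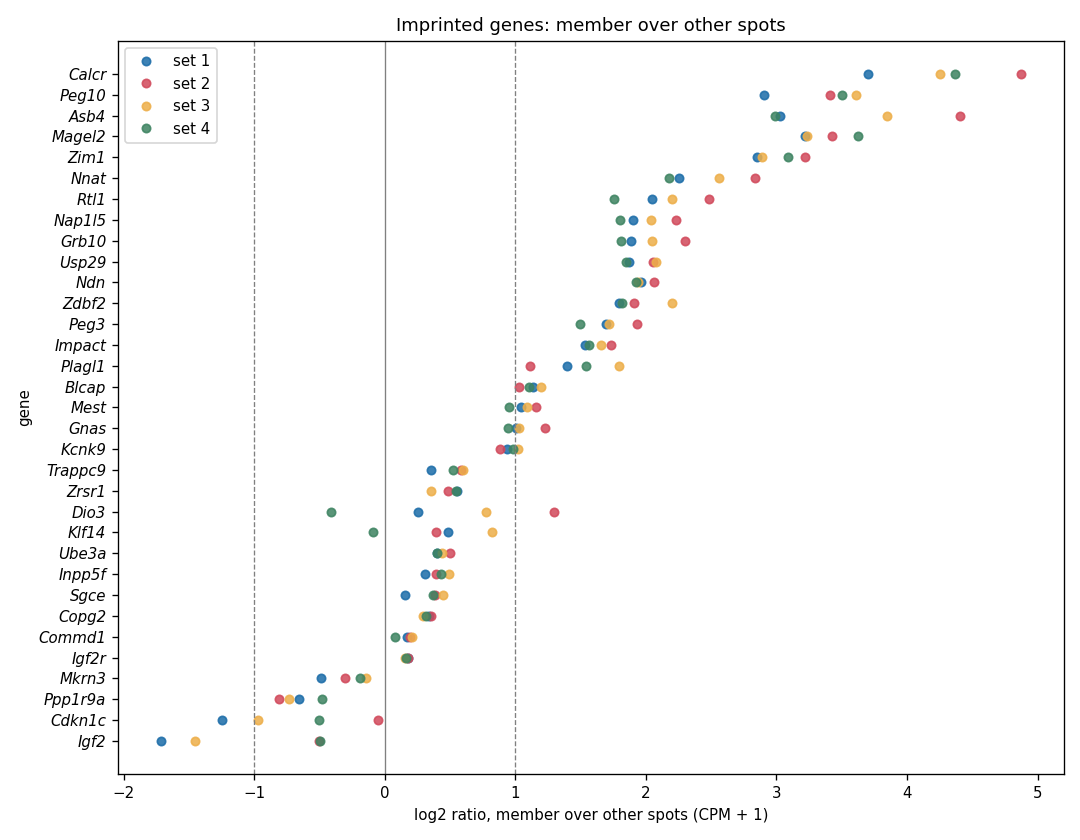
Log2 ratio of member to other spots (CPM + 1) for 33 imprinted genes, 1 point per barcode set, sorted by the median, with dashed lines at 2-fold. The 4 points of the 16 genes from Calcr to Blcap lie right of the upper line, and 0 genes have all 4 points left of the lower line.

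Steroid and hormone receptors were mixed. Of 9 genes of steroid signalling 3 were higher (Esr1, Cyp19a1 and the estrogen-induced gene Greb1) and 0 lower. With 5 CPM added 1, Esr1, was higher. Nr3c1, the glucocorticoid receptor gene, had log2 ratios of -0.10, -0.11, -0.10 and -0.29. Of 29 genes of feeding and pituitary signals 9 were higher: Ghsr, the ghrelin receptor gene, and Mc3r, Glp1r, Calcr, Npy2r, Gpr101, Brs3, Crhr2 and Trhr. Mc3r lost the call under TMM and RLE and Glp1r under TMM, where Ramp3 and Trhr2 became lower. With 5 CPM added 4 were higher, without Ghsr, Mc3r, Glp1r, Crhr2 and Trhr, and Mc3r was not called without the richest spots. Npy2r, a receptor of neuropeptide Y, was at 37.1, 46.2, 38.9 and 22.3 CPM against 7.08 to 9.52 CPM. Ghsr was at 3.05, 6.08, 3.55 and 7.73 CPM against 0.2504 to 1.45 CPM, and Crhr2, a receptor of the urocortins, at 11.4, 10.7, 12.1 and 9.36 CPM against 2.37 to 4.17 CPM. Lepr, the leptin receptor gene, was at 1.32 to 2.21 CPM in members and 1.95 to 4.29 CPM elsewhere.

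Of 23 receptors of hypothalamic peptides 4 were higher (Galr1, Npffr1, Adcyap1r1 and Oprl1) and 3 lower (Vipr1, Oprd1 and Cckbr). Npffr1 lost the call under TMM and with 5 CPM added, Adcyap1r1 under TMM and RLE, and Oprd1 with 5 CPM added. Galr1, a galanin receptor gene, was at 32.3, 14.9, 36.2 and 30.0 CPM in members against 6.22, 3.69, 2.65 and 9.07 CPM. Oprl1, the nociceptin receptor gene, was at 180.4, 173, 182 and 185 CPM against 71.7, 56.8, 77.3 and 77.4 CPM, level over the sets. The oxytocin receptor gene Oxtr was at 10.6, 10.2, 17.4 and 10.0 CPM in members and 6.72 to 8.36 CPM elsewhere.

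Hap1 protein builds the stigmoid body, a cytoplasmic inclusion common in hypothalamic neurons. Hap1 was at 1315, 1183, 1696 and 1100 CPM in members against 179, 121, 171 and 163 CPM elsewhere, and Ahi1, whose product binds Hap1, at 916, 1193, 1134 and 1142 CPM against 176, 219.6, 187 and 206 CPM. Of the 7 genes of that list these 2 were higher and 1, the sorting receptor gene Sort1, was lower, a call lost with 5 CPM added. Htt, the huntingtin gene, had log2 ratios of -0.15 to 0.011. Of 22 genes of peptide processing and dense-core vesicles 2 were higher (Scg2 and Resp18) and 1, the prohormone convertase gene Pcsk2, was lower, beside 2.47% and 3.09% of all genes. Resp18 was at 1165, 894, 1090 and 1159 CPM against 161, 93.3, 139.6 and 200.4 CPM, and Pcsk2 at 221, 105, 152 and 131 CPM against 455, 359, 412 and 344 CPM.

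Slc17a7, the vesicular glutamate transporter of cortical neurons, had the widest gap in the lower direction. It was at 39.2, 10.2, 20.5 and 24.3 CPM in members against 1293, 1532, 1444 and 1351 CPM elsewhere. Slc17a6, its subcortical relative, was at 170.3, 58.6, 86.0 and 101 CPM against 79.4, 9.96, 33.0 and 89.1 CPM, with a log2 ratio of 0.18 in set 4. Of 16 transmitter genes 5 were higher (Gad2, Slc6a11, Th, Ddc and Slc18a2) and 1, Slc17a7, was lower, and Gad2 lost the call under TMM and RLE. Th, the first enzyme of dopamine synthesis, was at 40.1, 31.4, 40.3 and 52.3 CPM against 5.71 to 7.30 CPM, and Slc18a2, which loads monoamines into vesicles, at 26.5, 17.7, 25.3 and 15.5 CPM against 2.55 to 7.77 CPM. Slc6a3, the dopamine transporter gene, was too low to be compared, at 0.608 to 1.53 CPM in members. Of 11 dopamine genes 3 were higher (Th, Ddc and Slc18a2) and 2, the receptor genes Drd1 and Drd2, were lower.

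Subunits of inhibitory receptors were called in both directions. Of 17 genes 4 were higher (Gabrg1 and the glycine receptor genes Glra1, Glra2 and Glra3, with Glra1 lost where 5 CPM were added) and 2 lower (Gabra4 and Gabrd, subunits of extrasynaptic GABA-A receptors). Gabrd was at 5.11, 4.63, 5.23 and 2.43 CPM in members against 129, 97.2, 119 and 89.2 CPM. Gabrg1 was at 115, 54.9, 136 and 54.1 CPM against 33.3, 11.8, 30.7 and 14.8 CPM, and Glra3 at 62.3, 13.7, 41.9 and 22.2 CPM against 11.3, 3.37, 7.59 and 4.88 CPM.

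Most of the listed striatal and cortical genes were lower in members. Of 14 striatal genes 13 were lower, all but Tac1, and of 12 cortical genes 7, or 9 with Foxp2 and Nptx1 under TMM. Ppp1r1b, the DARPP-32 gene of striatal projection neurons, was at 34.4, 98.5, 69.4 and 44.6 CPM in members against 1345, 2309, 2044 and 1177 CPM. The other leading lower genes, besides Slc17a7 and Gabrd, were Scn4b, Rtn4rl2, Adora2a, Gm11549, Neurod6, Neurod2, Ankrd33b, Emx1, Sh3rf2, Robo3, Igfn1 and Epop. Scn4b, a sodium channel subunit gene of striatum, was at 9.43, 12.1, 6.97 and 9.36 CPM against 250.2 to 416 CPM, and Adora2a, the adenosine receptor gene of striatopallidal neurons, at 3.48, 6.84, 2.76 and 2.95 CPM against 68.9 to 128 CPM. Neurod6, a factor of cortical excitatory neurons, was at 2.05, 0.608, 0.421 and 1.18 CPM against 43.2 to 66.6 CPM. Of 17 immediate-early genes, which neurons switch on with activity, 6 were lower (Egr1, Egr2, Egr3, Egr4, Nr4a1 and Arc) and 0 higher. Egr2 lost the call with 5 CPM added. Fos was at 19.4, 98.6, 9.44 and 114 CPM in members and 15.5, 61.0, 9.22 and 83.7 CPM elsewhere, high in sets 2 and 4 in both. Arc was at 28.8, 101, 22.8 and 90.6 CPM against 134, 423, 121 and 552 CPM, with the same sets high.

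Markers of other cell types were present in members. None of the 10 oligodendrocyte genes was called, with a sum of 5829 to 8325 CPM in members and 9371 to 18807 CPM elsewhere. The 8 microglial genes (347 to 413 CPM against 472 to 541 CPM) and the 8 endothelial and mural genes (179 to 269 CPM against 221 to 360.5 CPM) gave no call either. Choroid plexus genes summed to 81.6 to 249 CPM in members and 61.8 to 8373 CPM elsewhere, with no call, and Slc4a5 had no count in the members of set 1. Of 8 astrocyte genes, Agt, the angiotensinogen gene, and Slc6a11, a GABA transporter gene, were higher. Agt was at 377, 319.7, 303 and 358 CPM in members against 81.4, 28.9, 43.8 and 107 CPM. Of 7 ependymal and tanycyte genes Dio2 and Crym were lower, and the ependymal gene Ccdc153 was at 29.8, 22.9, 32.7 and 40.8 CPM against 18.99, 3.92, 10.3 and 9.30 CPM. Of 8 meningeal genes Igfbp2 was lower. The 8 thalamic and 5 lateral septal genes gave no call. Of 8 basal forebrain cholinergic genes Ecel1 was higher, at 194 to 381 CPM against 44.2 to 50.7 CPM, and Chat, which defines those neurons, was at 2.84, 5.01, 1.86 and 6.11 CPM. The part of these cells in the other results was not tested.

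Of 13 Celsr and planar polarity genes 1, Vangl2, was higher and 0 lower, beside 2.47% and 3.09% of all genes. Vangl2, a core polarity gene, was at 43.2, 55.7, 38.2 and 56.5 CPM in members against 19.002, 22.7, 16.8 and 24.1 CPM and lost the call under TMM and with 5 CPM added. Celsr3 was 1.40-fold (1.30 to 1.51), 1.14-fold (1.05 to 1.24), 1.36-fold (1.24 to 1.49) and 1.29-fold (1.19 to 1.39) its level in the other spots. Without TMM or RLE scaling each ratio was above 1 and short of 2-fold. The median log2 ratio of genes of 10 CPM or more was itself 0.075, 0.11, 0.088 and 0.084. The TMM factor of members exceeded that of the other spots in every set, which lowers these ratios. Celsr3 was not computed under TMM. Celsr2 was at 160.4, 129, 164 and 133 CPM in members against 187, 178, 204 and 163 CPM, and Celsr1 at 2.63, 1.67, 5.89 and 3.68 CPM against 5.03, 3.45, 6.11 and 2.97 CPM.

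Hap1 levels lay close together on either side of the rule's threshold, and Oxt levels less so. In spots up to 0.25 below the threshold of 1 Hap1 was at 1035, 662, 972 and 680.1 CPM in sets 1 to 4, and in those up to 0.25 above it at 1141, 845, 1203 and 762 CPM. It was at 86.8 to 119 CPM in spots under 0 and 1266 to 1929 CPM in those at 2 or more. Calcr was at 0.602 to 1.0096 CPM in spots under 0 and 60.3 to 87.0 CPM in those at 2 or more. Oxt was at 299.8, 258, 132 and 1574 CPM just below the threshold and 1036, 53.2, 183 and 4009 CPM just above, and in set 2 the lower bin had the higher level.

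**Figure D5:**
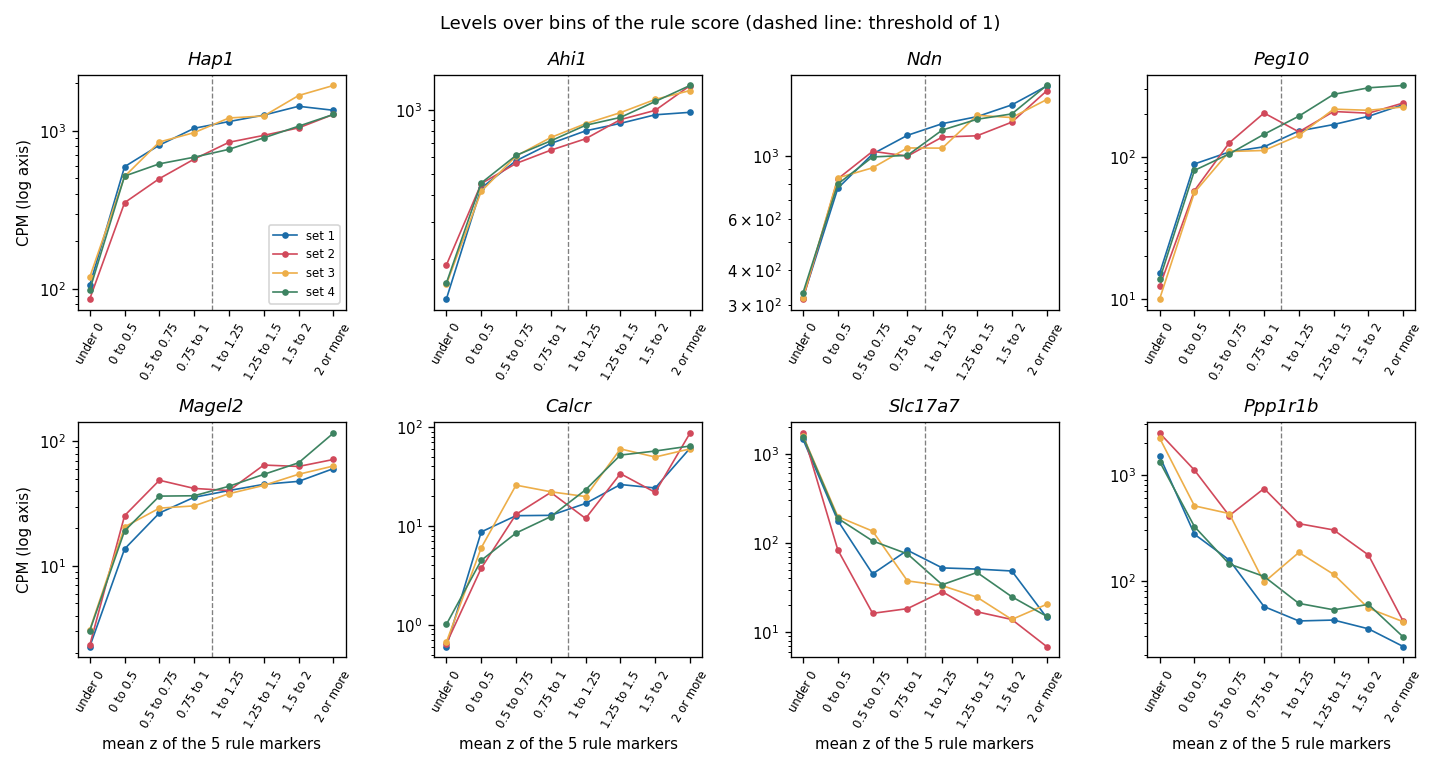
Levels (CPM, log axis) of 8 genes in spots binned by the mean z of the 5 rule genes, 1 line per barcode set, with the threshold of 1 as a dashed line. Hap1 goes from 86.8 to 119 CPM in the lowest bin to 1266 to 1929 CPM in the highest, and Slc17a7 from 1445 to 1698 CPM to 6.91 to 20.5 CPM.

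The genes most like the rule's mean z over all 12601 kept spots, by Pearson r, were AW551984 (0.86), Gpx3 (0.83), Hap1 (0.82), Ahi1 (0.80), Resp18 (0.79), Tmem130 (0.78), Peg10 (0.78), Tmem255a (0.77), Zcchc12 (0.75) and Gaa (0.75). Neighbouring spots share tissue, section and depth, so these values are descriptions. Within single sets the r of AW551984 was 0.84 to 0.90.

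Members were set against 3 areas chosen by marker genes in the same way, with shared spots left out. Thalamus spots (Tcf7l2, Prkcd, Lef1, Ntng1 and Rora) numbered 665, lateral septum spots (Trpc4, Dgkg, Zic4 and Homer2) 658 and extended amygdala spots (Nts and Hap1) 1471. Shared with members were 17 thalamus spots (2.56% of these, 1.08% of members), 146 septal spots (22.2%, 9.23%) and 830 extended amygdala spots (56.4%, 52.5%). The genes that chose an area were left out of its comparison. Against thalamus spots 81 of 10251 genes (0.79%) were higher in every set and 42 (0.41%) lower. The counts were 106 and 71 without set 2 and 104 and 60 without set 3. In the thalamus spots of sets 1 to 4 Slc17a6, the glutamate transporter of thalamic relay neurons, was at 582, 14.5, 154 and 468 CPM and Gad2, an enzyme of GABA synthesis, at 141, 952, 746 and 87.6 CPM. The 26 spots of set 2 went against the name of the area. The 123 spots of set 3 also had more Gad2 than Slc17a6 and went against the name in part. Against lateral septum spots 84 of 10344 (0.812%) were higher and 60 (0.58%) lower, or 139 and 120 without set 4. The lateral septum is known as a GABAergic area, and in its spots Slc17a6 was at 247, 7.14, 117 and 319 CPM and Slc32a1 at 49.9, 159, 137 and 22.9 CPM. Sets 1 (45 spots) and 4 had the more Slc17a6 and the less Slc32a1. Against extended amygdala spots 23 of 10268 (0.224%) were higher and 61 (0.594%) lower. These counts were 44 and 73 without set 1, 48 and 69 without set 2 and 34 and 147 without set 3.

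Higher in members than in each of the 3 areas were 14 of 10102 genes (0.139%): Oxt, Sytl4, Pgr15l, Trh, Calcr, AW551984, Gpx3, Otp, Adcyap1, Asb4, Minar2, Celf6, Gpr165 and Peg10. Leaving out set 2 for the thalamus and sets 1 and 4 for the septum added no gene, with 14 higher than in each area and 4 lower. Set 3 of the thalamus was kept there. A call needs every set used, so leaving sets out can only keep or add genes and does not check the 14. Calcr was at 42.3, 41.1, 54.9 and 47.8 CPM in the members compared with extended amygdala spots and 10.6, 8.49, 17.5 and 7.99 CPM in those spots. Otp was at 159, 2.08, 67.7 and 111 CPM against 9.56, 0.386, 14.1 and 4.12 CPM, low on both sides in set 2. Gad2 was at 864, 949.6, 915 and 607 CPM against 844, 869.9, 875 and 592 CPM, within 2-fold in every set. Many genes described above missed the call against extended amygdala spots. Avp was at 7.06 against 5.21 CPM in set 2. Log2 ratios were 0.93, 0.81, 0.61 and 0.93 for Ndn, 0.80, 1.03, 0.71 and 1.09 for Ahi1 and 1.42, 1.16, 0.95 and 1.97 for Magel2. Nnat, Peg3, Zim1, Nap1l5, Esr1, Ngb, Gpr101 and Resp18 also missed it. Lower than in each area were 4 genes (0.0396%): Gabrd, Slc17a7, Lhx2, a forebrain patterning gene, and Dio2, which activates thyroid hormone.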

How the data were processed

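The authors deposited raw counts, whole numbers with no normalization, for 19465 genes in 12602 spots. The submitters' processing notes name Space Ranger and Seurat without versions. The probe set, genome build and spot filter are not given in the sources used here. Genes with near-identical copies, such as H2-D1 and H2-Q2, are uncertain. Spots under 500 counts (1 spot) were left out. The spot names held 4744 distinct barcodes, 1613 of them in all 4 sets. Counts were summed over member and other spots per set and scaled to CPM, and log2(CPM + 1) was compared, a scale that lessens differences of low genes. Genes averaged at least 10 CPM, or 1 CPM in the 29 lists. Named were the 25 highest and 15 lowest genes by the set nearest to no difference, the 15 widest ranges over sets, list genes, the 10 genes most like the rule, and Celsr1, Celsr2 and Celsr3. A few genes that these rules name are not reported here. Other named genes were chosen after their values were seen. The members, lists and areas were chosen with earlier results of these data known. Intervals are exact at 95%, and a count of 0 was taken to allow 3 counts. The planned genotype test with edgeR was not run, because no set could be matched to a mouse. Scripts were tested on simulated data. Software was Python 3.11.15, numpy 2.4.6, scipy 1.17.1, pandas 2.3.3 and matplotlib 3.10.9, with TMM and RLE factors from edgeR 4.0.16 in R 4.3.3. Alternatives were other thresholds of the rule, z within sets, a higher spot minimum, other comparison spots, TMM, RLE, no gene filter, a pseudocount of 5, thinned counts and leaving out each set. Leaving out the richest spot of a gene, or sets from the area comparisons, was added after seeing the data.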

Additional observations from a re-analysis of the deposited data

Results flagged for a closer look

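Of 104 results examined over the 4 sets, 4 had 1 set whose gap to the nearest of the others was most of the whole range (Dixon's criterion). Chance gives about 1 such case in 20, and the labels put the sets in no group. Nts, the neurotensin gene, was at 229 CPM in the members of set 2, against 29.0, 24.9 and 29.5 CPM in sets 1, 3 and 4. Nmb, the neuromedin B gene, was at 18.5 CPM in the members of set 2, against 8.95, 9.38 and 10.0 CPM. Nr2f2, a nuclear receptor gene of forebrain patterning, was at 18.2 CPM in the members of set 2, against 67.9, 67.1 and 65.6 CPM, and at 19.1, 5.43, 9.88 and 15.2 CPM in the other spots of sets 1 to 4. Zrsr1, an imprinted splicing factor gene, was at 39.5 CPM in the members of set 3, against 56.9, 55.9 and 58.0 CPM, and at 38.3, 39.7, 30.7 and 39.3 CPM in the other spots of sets 1 to 4.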

How the results depend on the processing

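The share of members followed the threshold of the rule. At a mean z of 0.75 or more it was 13.7%, 14.1% and 15.8% in sets 1, 3 and 4, and at 1.5 or more 6.64%, 11.2%, 9.06% and 10.3% in sets 1 to 4. With z taken within each set, set 1 had 13.4%. The remaining shares under these settings, under a higher spot minimum and with 1 set left out stayed inside the main intervals. The counts of genes called stayed within 1.5 times the main counts in all 14 settings, from 196 to 342 higher (main 255) and from 303 to 449 lower (main 355). Of the main calls, 196 higher and 355 lower genes kept theirs under TMM. The TMM factor of members exceeded that of the other spots in every set, which lowers most ratios. That the lower genes kept their calls is therefore no check of them. Without a set in turn, 257 to 300 genes were higher and 367 to 406 lower. List genes called over the settings were 48 to 78 higher and 37 to 44 lower. With areas at a mean z of 1.5 or more, 11 genes were higher than in each area, 10 of them among the 14, and 3 lower. For the 40 leading genes 0 of 560 ratios changed sign and 61 moved by more than 1 SD over the sets. These genes were chosen for ratios far from 0 in every set, so a change of sign was hardly possible. Dropping the gene filter leaves their ratios as they are. No paired analysis was possible because no barcode set could be matched to a mouse or replicate number, so the planned replicate block, edgeR genotype test and DESeq2 were not run. Genes under 10 CPM rest on few counts.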

Other observations

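Blood and histocompatibility genes separated the sets in members and in the other spots. Hbb-bs, a beta-globin gene, was at 0.632, 10.2, 4.15 and 54.0 CPM in the members of sets 1 to 4 and 7.59, 13.0, 2.72 and 62.2 CPM in their other spots. H2-D1, a class I histocompatibility gene, was at 38.7, 23.7, 45.3 and 0.295 CPM in members and 31.6, 16.6, 34.5 and 0.466 CPM elsewhere. Me1, the malic enzyme gene, was at 30.7, 14.8 and 26.0 CPM in the members of sets 1 to 3 and had no count in set 4, and Amd1, a gene of polyamine synthesis, was at 17.0, 11.7 and 39.5 CPM in sets 1, 2 and 4 and had no count in set 3.

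The labels give no ground for pairing sets, and no pairs were used as groups. Between the other spots, 60 genes of set 1 were 2-fold apart from set 3, 91 of set 2 from set 4, and the remaining pairs had 414 to 737.

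In set 1 the 18 member spots with the highest Hcrt level had 4.68-fold (3.42 to 6.30) the Pomc level, 1.57-fold (1.22 to 2.00) the Pmch level and 0.115-fold (0.104 to 0.128) the Oxt level of the other members. The richest spot of each of these genes was among the other members. Without that spot the ratio was 9.79-fold (6.99 to 13.5) for Pomc, 5.45-fold (4.16 to 7.06) for Pmch and 0.127-fold (0.114 to 0.141) for Oxt.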
